A study of Saccharomyces cerevisiae with 6 samples.

Results

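The genes described here encode proteins that sit on yeast mRNAs: the cap-binding complex subunits Cbp80 (STO1, YMR125W) and Cbp20 (CBC2, YPL178W), the poly(A)-binding proteins Nab2 (NAB2, YGL122C) and Pab1 (PAB1, YER165W), the SR-like proteins Npl3 (NPL3, YDR432W), Gbp2 (GBP2, YCL011C) and Hrb1 (HRB1, YNL004W), the cleavage factor Hrp1 (HRP1, YOL123W), the U-rich RNA-binding protein Pub1 (PUB1, YNL016W) and the translation initiation scaffold eIF4G1 (TIF4631, YGR162W). They were taken by name, with earlier results of these data known, so the shares over all genes given below are descriptions. They are 10 of the 6461 genes of the count table, and all 10 passed the filter on low counts that left 5181 genes for testing. The libraries were 3′-Tag-seq libraries of total yeast RNA, in which an mRNA is read next to its poly(A) tail, with 2 biological replicates at each of 3 temperatures. The 25°C and 30°C groups were grown at those temperatures in rich medium, and the 37°C group was a 25°C culture that was diluted with as much pre-warmed medium and kept at 37°C, 2 h in all. Temperature and fresh medium therefore changed together at 37°C and cannot be told apart. Every group was the same MATa strain with the auxotrophic alleles ura3Δ0, met15Δ0, lys2Δ0, leu2Δ0 and his3Δ1, a SNAP tag on YRA1 and a protein A tag on CBP80, so the STO1 mRNA measured here is that of a tagged gene in all 6 libraries.

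An mRNP forms while the mRNA is made. The cap-binding complex takes the 5′ cap in the nucleus and is exchanged for eIF4E and eIF4G in the cytoplasm. Hrp1 reads a UA-rich element upstream of the cleavage site, Nab2 binds the nuclear poly(A) tail and limits its length, and Pab1 covers the tail in the cytoplasm, where it contacts eIF4G. Npl3 joins early and takes part in splicing, 3′ end formation and export, while the paralogs Gbp2 and Hrb1 check spliced mRNAs before export. Several of these proteins are known to bind their own mRNAs, and the run of A after the NAB2 stop codon and the A-rich leader of PAB1 are the classic cases.

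The stretches that follow show these elements in the R64 reference genome, with the run of A or the TA repeat in capitals. The first is the run of 26 A that begins at base 141 after the NAB2 stop codon (chrVII:278778-278807, minus strand), and the second lies in the leader of PAB1, with its run of 11 A from base 44 before the start codon (chrV:510326-510355, plus strand). The next pair are the TA repeats after CBC2 (chrXVI:212823-212847, plus strand) and HRP1 (chrXV:89534-89547, plus strand), shown because Hrp1 recognizes such repeats in RNA.
NAB2 run of A: ttAAAAAAAAAAAAAAAAAAAAAAAAAAgt
PAB1 A-rich leader: ctcAAAAAAAAAAAtccaaaaaaaactaaa
CBC2 TA repeat: gaTATATATATATATATATATATta
HRP1 TA repeat: aaTATATATATAca

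Runs of A were not limited to NAB2. CBC2 had a run of 18 A from base 118 after its stop codon (chrXVI:212900-212921, plus strand), and GBP2 a run of 19 A from base 180 after its stop codon (chrIII:101875-101897, minus strand). A run of at least 18 A within 200 bases of the stop codon occurred in 3 of the 10 genes (CBC2, NAB2 and GBP2) and in 31 of 5990 coding genes (0.518%), and a run of at least 26 A in NAB2 alone of the 10 and in 5 of 5990 (0.0835%). These lengths were set after the sequences had been read, so the shares are descriptions without a test. Whether tags of CBC2, NAB2 and GBP2 begin at the encoded run of A rather than at the poly(A) tail was not tested. The letters TATATA occurred in the same window of 5 of the 10 genes (STO1, CBC2, NPL3, HRB1 and HRP1), against 48.3% of all coding genes.
CBC2 run of A: gtAAAAAAAAAAAAAAAAAAtc
GBP2 run of A: agAAAAAAAAAAAAAAAAAAAgg

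The count table covers coding regions, so the tags counted for a gene are those that reach back into it from its 3′ end. The last 60 coding bases are shown for STO1, where the protein A cassette follows the last sense codon in this strain, and for the paralogs GBP2 and HRB1, whose counts could be split by shared sequence, with the stop codon in capitals (STO1 chrXIII:520387-520446, plus strand; GBP2 chrIII:102075-102134, minus strand; HRB1 chrXIV:624562-624621, plus strand). The longest identical run of bases in GBP2 and HRB1 was 12 bases, and that in TIF4631 and its paralog TIF4632 was 21 bases. None of the 10 genes overlaps another annotated gene. STO1 (chromosome XIII, 517539 to 520446) and HRB1 (chromosome XIV, 622915 to 624621) have 2 exons with introns of 322 and 342 bases, and the other 8 have 1 exon. Because 3′ tags are not scaled by length and STO1 lacks its native 3′ end here, levels were compared between libraries for the same gene and not between genes. Tags that lie within the cassette fall outside the annotated STO1 gene. Whether the STO1 counts follow the full-length tagged mRNA was therefore not tested.
STO1 gene end: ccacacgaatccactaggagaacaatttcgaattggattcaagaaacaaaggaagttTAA
GBP2 gene end: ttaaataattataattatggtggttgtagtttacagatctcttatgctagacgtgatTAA
HRB1 gene end: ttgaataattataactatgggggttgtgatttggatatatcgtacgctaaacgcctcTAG

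Libraries held 184456 to 1006632 counts in genes. The first 25°C replicate was the shallowest, and its log2 CPM correlated with the other libraries at 0.716 to 0.862 across 5181 genes, so fold changes against 25°C are also given without it. The 10 genes together took 1052 counts in that library (0.570% of its counts) and 2146 to 2811 in the other 5 (0.235% to 0.329%). The auxotrophic markers matched the strain, while 1 marker of the other mating type was counted. URA3 and MET17 had 0 counts throughout, and LYS2 and LEU2 at most 1 and 2. STE2 and MFA1, specific to MATa cells, had 22 to 273 and 2 to 86 counts, while the genes specific to the other mating type had 12 to 43 counts for SAG1, up to 5 for STE3 and up to 1 for MF(ALPHA)1. Levels are given in CPM, a gene's counts over the TMM-scaled library total. A CPM is thus a share of the library, so a fall of an mRNA and a rise of the other RNA cannot be told apart. Within this scale 3 counts amount to 17.6 CPM in the first 25°C replicate and 2.81 to 4.25 CPM in the other libraries.

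**Figure D1:**
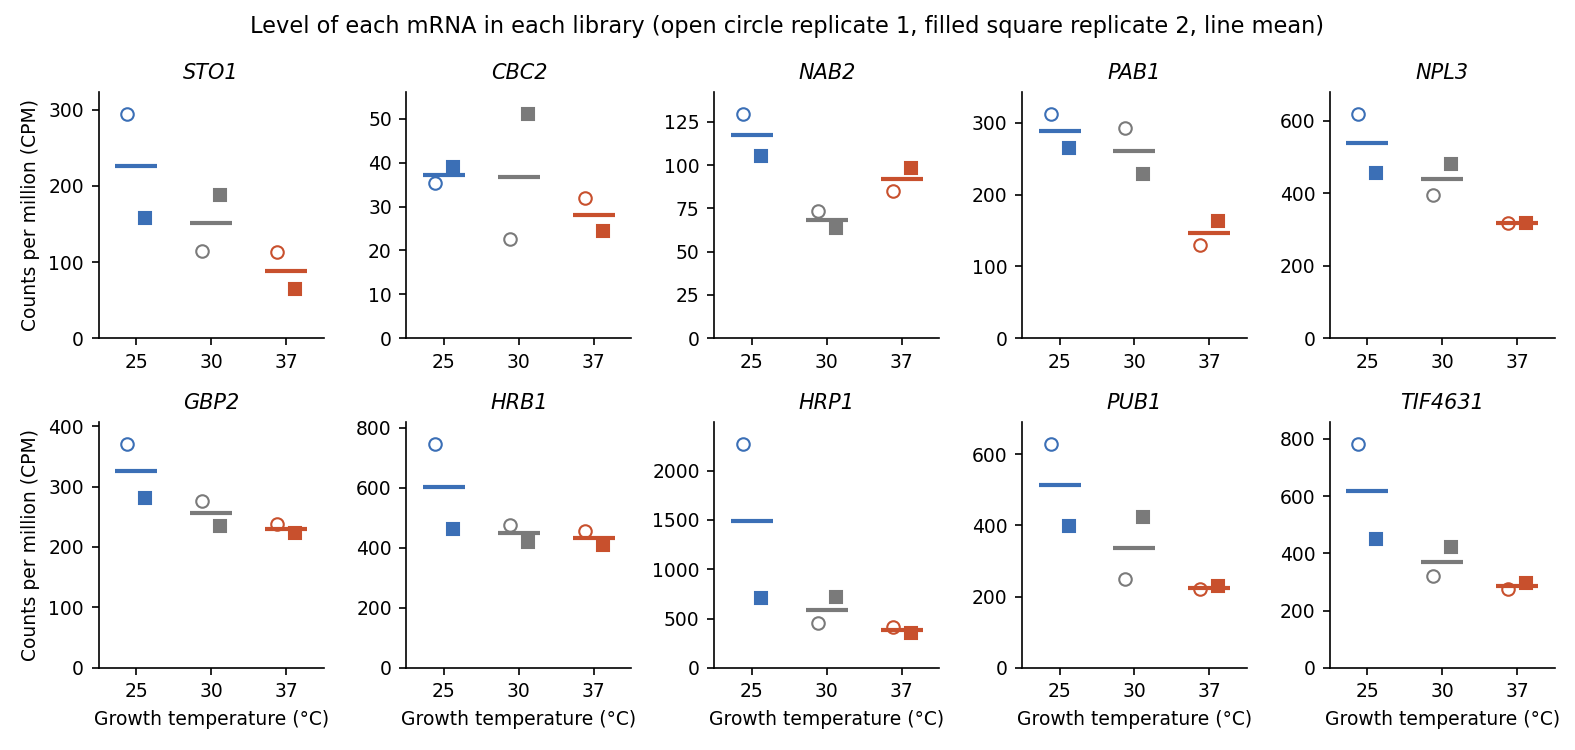
Level of each of the 10 mRNAs in CPM (y axis, from 0) against growth temperature (x axis, °C), with an open circle for replicate 1, a filled square for replicate 2 and a line at the mean of both. In all 10 panels both 37°C points lie below both 25°C points, and in the NAB2 panel the 30°C points are the lowest.

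The cap-binding complex was compared first. STO1 (chromosome XIII), for the large subunit Cbp80, had levels of 294 and 157 CPM at 25°C, 114 and 188 CPM at 30°C, and 113 and 64.7 CPM at 37°C. Both 37°C libraries were thus below every other library in counts within this tagged gene, the first of them only just. The 30°C libraries overlapped the 25°C ones. Tags within the cassette are not in these counts, so they may not follow the full-length tagged mRNA. The means were 226 ± 96.5 CPM at 25°C, 151 ± 52.6 CPM at 30°C and 88.8 ± 34.1 CPM at 37°C (SD, n = 2 each). The log2 fold change at 37°C against 25°C was −1.30 (SE 0.47, 95% interval −2.41 to −0.19, edgeR adjusted p = 0.338), and it was −0.86 without the first 25°C replicate. Against 30°C it was −0.76 (SE 0.46, edgeR adjusted p = 0.845). The difference at 37°C was not called in either comparison.

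CBC2 (chromosome XVI, 212158 to 212784), for Cbp20, the subunit that holds the cap, was the least counted of the 10, with 6 counts in the first 25°C replicate (95% Poisson interval 2.20 to 13.1, counting error only) and 20 to 36 in the others. Its levels were 35.3 and 39.1 CPM at 25°C, 22.6 and 51.0 CPM at 30°C, and 32.0 and 24.4 CPM at 37°C. The 30°C replicates spanned all other libraries and differed 2.26-fold from each other, the widest gap between 30°C replicates among the 10 genes. The log2 fold change at 37°C against 25°C was −0.43 with a 95% interval of −1.59 to 0.74 (SE 0.49, edgeR adjusted p = 0.730), and −0.50 without the first 25°C replicate. The interval includes 0 and also reaches below −1, so this depth could not show whether CBC2 changed.

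Of the poly(A)-binding protein genes, NAB2 (chromosome VII, 278946 to 280523) had levels of 129 and 105 CPM at 25°C, 73.3 and 63.7 CPM at 30°C, and 85.3 and 98.5 CPM at 37°C. It was the one mRNA of the 10 with its lowest mean at 30°C, and its 3 groups did not overlap. The log2 fold change at 30°C against 25°C was −0.75 (SE 0.31, unadjusted p = 0.0476, edgeR adjusted p = 0.888), and −0.60 without the first 25°C replicate. At 37°C it was 0.42 relative to 30°C (SE 0.30, 95% interval −0.28 to 1.13, edgeR adjusted p = 0.876). Relative to 25°C the 37°C value was −0.33 (SE 0.31, edgeR adjusted p = 0.669), and −0.22 without that replicate. None of these was called.

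PAB1 (chromosome V, 510373 to 512106) showed another order. Its levels were 312 and 265 CPM at 25°C, 293 and 228 CPM at 30°C, and 130.0 and 163 CPM at 37°C. The 25°C and 30°C libraries overlapped, and both 37°C libraries lay below all 4 of them. The log2 fold change at 37°C was −0.97 against 25°C (SE 0.32, 95% interval −1.71 to −0.22, unadjusted p = 0.0179, edgeR adjusted p = 0.299). Against 30°C it was −0.83 (SE 0.31, 95% interval −1.56 to −0.10, unadjusted p = 0.0312, edgeR adjusted p = 0.659). PAB1 was the only one of the 10 with an unadjusted p below 0.05 against both lower temperatures, but none of the 10 had one against 30°C with total counts as the scale, with a replicate block, or with the first 30°C replicate or either 37°C replicate left out. Without the first 25°C replicate its value against 25°C was −0.88. At 30°C against 25°C its log2 fold change was −0.14 (SE 0.31, 95% interval −0.87 to 0.60), and −0.010 without that replicate.

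Among the SR-like protein genes, NPL3 (chromosome IV, 1328783 to 1330027) had levels of 617 and 457 CPM at 25°C, 396 and 480.0 CPM at 30°C, and 318 and 319 CPM at 37°C. The 37°C replicates were nearly equal and lay below all other libraries. Its log2 fold change at 37°C was −0.75 against 25°C (SE 0.33, edgeR adjusted p = 0.376) and −0.46 against 30°C (SE 0.33, edgeR adjusted p = 0.875). The former was −0.55 with the first 25°C replicate left out.

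GBP2 and HRB1, the paralogous pair, had a flatter profile. GBP2 (chromosome III, 102075 to 103358) had levels of 370.4 and 281 CPM at 25°C, 276 and 235 CPM at 30°C, and 239 and 222.3 CPM at 37°C. HRB1 had levels of 747 and 463 CPM at 25°C, 476 and 421 CPM at 30°C, and 455 and 409.8 CPM at 37°C. For both, the 30°C and 37°C libraries overlapped, and the second 25°C replicate lay close to them. The log2 fold changes at 37°C against 25°C were −0.49 for GBP2 (SE 0.31, edgeR adjusted p = 0.523) and −0.47 for HRB1 (SE 0.36, edgeR adjusted p = 0.596), and −0.31 and −0.13 without the first 25°C replicate. Against 30°C they were −0.15 (SE 0.30) and −0.052 (SE 0.36), and both values turned positive when libraries were scaled by total counts alone (0.093 and 0.19).

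HRP1 (chromosome XV, 87844 to 89448), whose product takes part in the choice of the cleavage site, had the widest spread. Its levels were 2269 and 710.2 CPM at 25°C, 452 and 722 CPM at 30°C, and 419 and 355 CPM at 37°C. The 25°C replicates differed 3.20-fold, and the second of them lay within the range of the 30°C libraries. The log2 fold change at 37°C against 25°C was −1.94 (SE 0.59, 95% interval −3.34 to −0.54, unadjusted p = 0.0135, edgeR adjusted p = 0.288). It was the lowest of the 10 values, and −0.90 when the first 25°C replicate was left out. DESeq2 called HRP1 lower at 37°C (log2 fold change −2.01, DESeq2 adjusted p = 0.0404), and no longer did so without that replicate (DESeq2 unadjusted p = 0.0637, adjusted p = 0.999). Against 30°C the edgeR value was −0.60 (SE 0.58, 95% interval −1.96 to 0.76).

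PUB1 (chromosome XIV, 602907 to 604268), for a protein that binds U-rich RNA and joins stress granules, had levels of 629 and 399 CPM at 25°C, 250.4 and 423 CPM at 30°C, and 221.7 and 229 CPM at 37°C. TIF4631 (chromosome VII, 824059 to 826917), for eIF4G1, had levels of 782 and 451 CPM at 25°C, 319 and 423 CPM at 30°C, and 275 and 295 CPM at 37°C. For both mRNAs the 37°C libraries lay below all others and close to each other. The log2 fold changes at 37°C against 25°C were −1.18 for PUB1 (SE 0.40, unadjusted p = 0.0205, edgeR adjusted p = 0.314) and −1.10 for TIF4631 (SE 0.38, unadjusted p = 0.0235, edgeR adjusted p = 0.323). Without the first 25°C replicate they were −0.85 and −0.69. Against 30°C they were −0.58 (SE 0.39) and −0.38 (SE 0.38), and neither was called (edgeR adjusted p = 0.859 and 0.935).

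**Figure D2:**
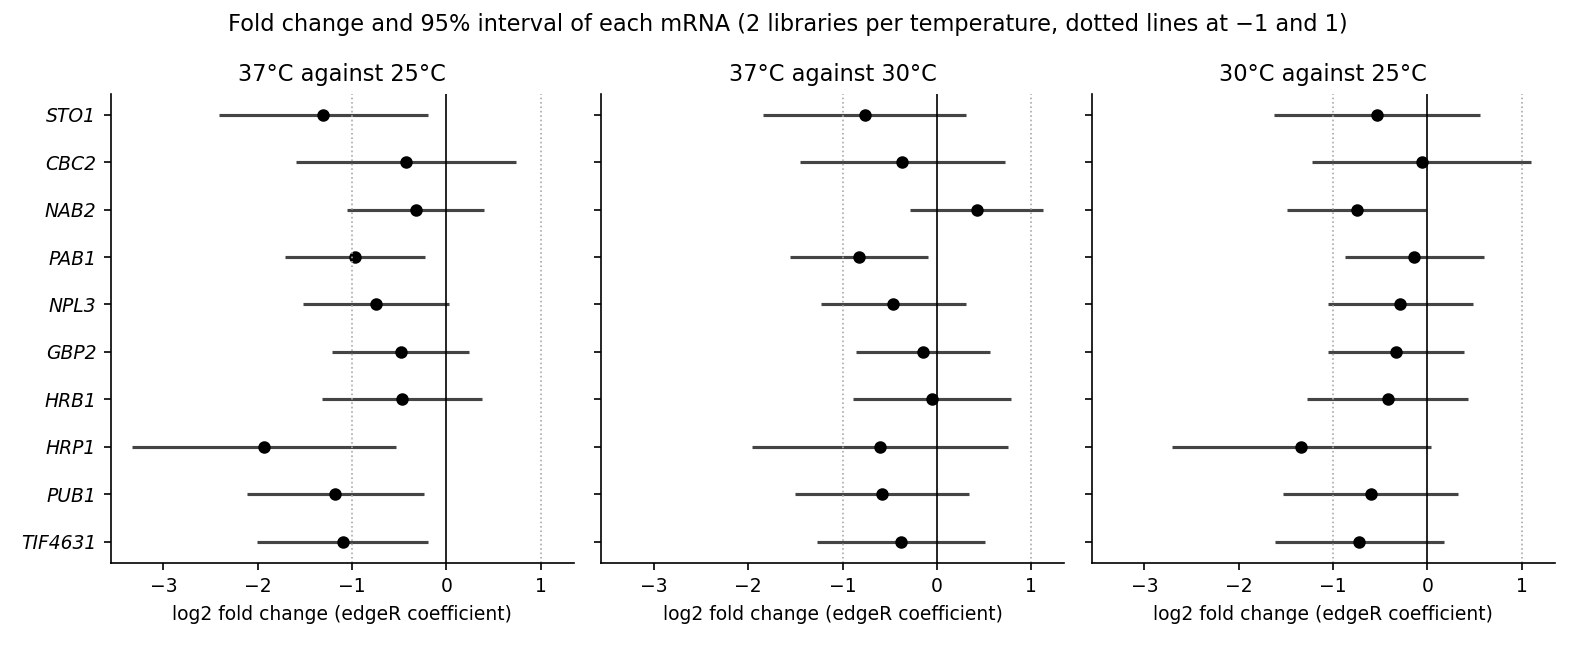
The log2 fold change of each mRNA (x axis, edgeR coefficient before shrinkage) with its 95% interval as a bar, for the 3 comparisons of temperature, 2 libraries per group. Against 25°C the points at 37°C are all below 0 and 5 of the 10 intervals exclude 0, while against 30°C the NAB2 point alone is above 0.

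Across the 10 genes, the edgeR log2 fold change at 37°C against 25°C was negative for all 10, with a median of −0.86 and a range of −1.94 to −0.33. Over all 5181 genes the median was 0.088 and 44.6% were negative. A call needed an adjusted p under 0.05 and a log2 fold change past 1 in size. By edgeR it was met by none of the 10 and by no other gene (0%), although 702 genes, 5 of the 10 among them, had an unadjusted p below 0.05. By the other tools DESeq2 called 53 genes, HRP1 among them, with an adjusted p given for 7 of the 10, and limma-voom called 0. The 5 with an unadjusted p below 0.05 were STO1, PAB1, HRP1, PUB1 and TIF4631, all lower at 37°C, where 6.02% of all genes were lower by the same rule. With total counts as the scale that count was 1, among 748 genes at an unadjusted p below 0.05 in either direction. It also fell with either 37°C replicate or the first 25°C replicate left out, and rose with the second 25°C replicate left out. The count over all genes moved likewise. Those fits hold 1 library in the group concerned. Without the first 25°C replicate the log2 fold changes of these 5 genes ran from −0.90 for HRP1 to −0.69 for TIF4631. Both 37°C libraries lay below both 25°C libraries for all 10 genes, against 23.2% of all genes tested. It follows that the second 25°C replicate alone was above both 37°C libraries for all 10, which adds no further check. Of all genes tested, 39.7% met this wider rule.

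**Figure D3:**
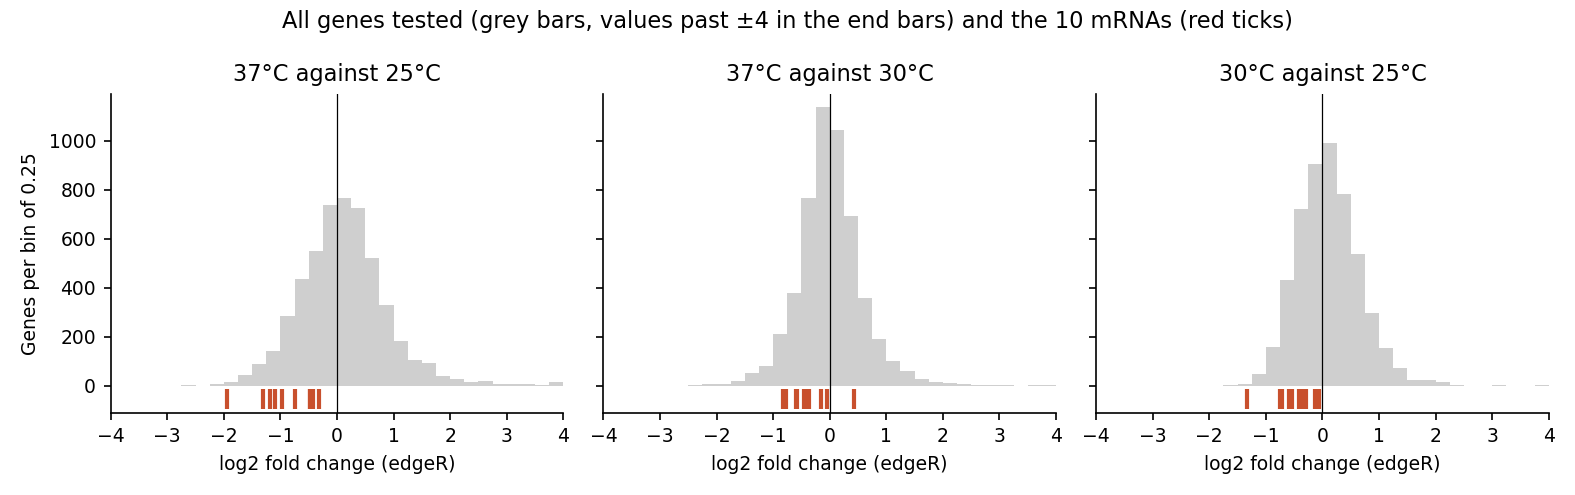
Histogram of the edgeR log2 fold change (x axis) of all 5181 genes tested (y axis, genes per bin, grey bars, values past the axis in the end bars), with a red tick for each of the 10 mRNAs. The ticks at 37°C against 25°C run from −1.94 to −0.33 and those at 37°C against 30°C from −0.83 to 0.42.

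At 37°C against 30°C neither group holds the shallow library, which still enters the estimate of spread that all libraries share. The median over the 10 genes was −0.42 and over all genes −0.012. The value was negative for 9 of the 10 and for 51.3% of all genes. Neither the 10 nor the other genes held a call by edgeR (0%). An edgeR unadjusted p below 0.05 was found for 366 genes, and for 619 with only these temperatures fitted. DESeq2 called 15 genes and limma-voom 0, none of the 10 among them. PAB1 was the one of the 10 that was lower at an unadjusted p below 0.05, against 2.41% of all genes. Both 37°C libraries were below both 30°C libraries for 6 of the 10 (STO1, PAB1, NPL3, HRP1, PUB1 and TIF4631), against 20.2% of all genes, and above them for NAB2 alone, against 24.3%. GBP2, HRB1 and CBC2 overlapped. The comparison with 25°C and that with 30°C use the same 37°C libraries, so they are not independent of each other.

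At 30°C against 25°C, both steady growth temperatures, all 10 values were negative, with a median of −0.48 and a range of −1.34 for HRP1 to −0.061 for CBC2. Without the first 25°C replicate the median was −0.11 and the values ran from −0.60 for NAB2 to −0.010 for PAB1. The edgeR test called no gene (0%), with 73 at an unadjusted p below 0.05, and DESeq2 and limma-voom called 0 as well. NAB2 was lower at an unadjusted p below 0.05, against 0.309% of all genes, and lost this without the first 25°C replicate (unadjusted p = 0.0978). Both 30°C libraries were below both 25°C libraries for NAB2, GBP2 and TIF4631, 3 of the 10, against 10.4% of all genes. The mean levels fell into the order 25°C, 30°C, 37°C from highest to lowest for 9 of the 10, against 23.2% of all genes tested, and NAB2 had the order 25°C, 37°C, 30°C. The order of all 10 was the same with the second 25°C replicate standing alone for its group, where 23.0% of all genes had the former order. Of the neighbours in these orders, only the 30°C and 37°C levels of PAB1 had a 95% interval of the difference that excluded 0. The intervals of the other neighbours included 0, so the fit leaves their order undecided.

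**Figure D4:**
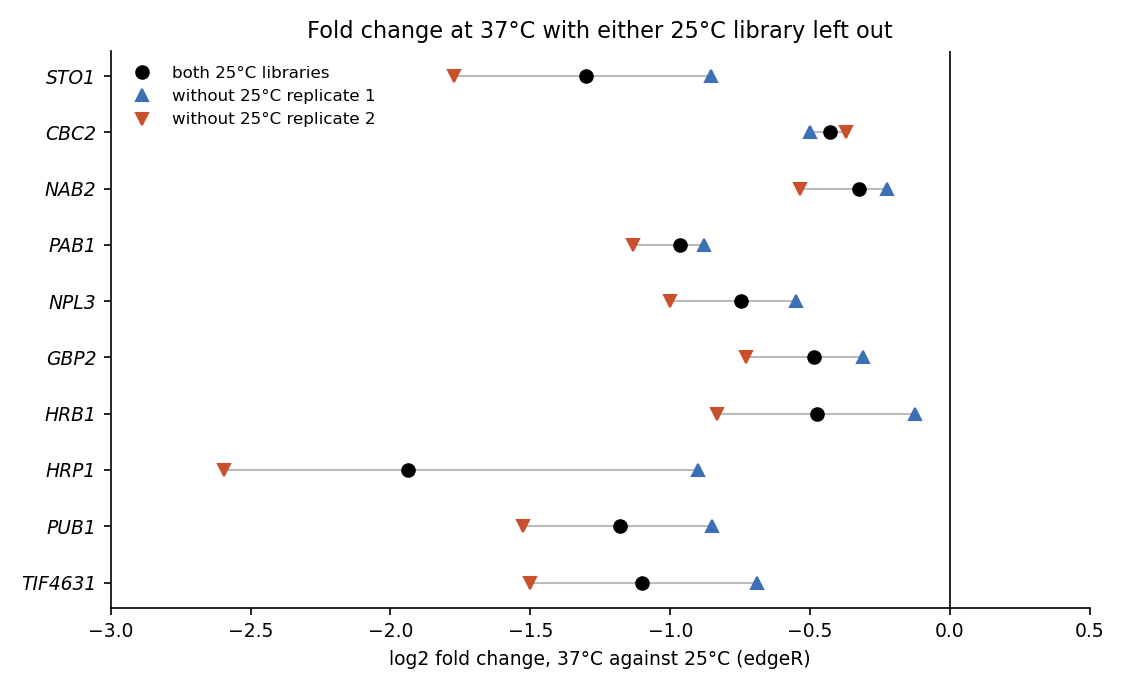
The edgeR log2 fold change at 37°C against 25°C (x axis) of each mRNA from all 6 libraries (circle), without the first 25°C replicate (upward triangle) and without the second (downward triangle). HRP1 moves from −1.94 to −0.90 and −2.60, and all points of all 10 mRNAs stay below 0.

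The first 25°C replicate held the highest level of the 6 libraries for 9 of the 10 genes (CBC2 was highest in the second 30°C replicate), where 31.3% of all genes were highest in it. Its part in the differences was measured by leaving it out. The median over the 10 genes at 37°C against 25°C went from −0.86 to −0.62, and the range narrowed to −0.90 to −0.13. The values farthest from 0 were then those of HRP1 (−0.90), PAB1 (−0.88), STO1 (−0.86) and PUB1 (−0.85). Leaving out the second 25°C replicate gave the opposite, a median of −1.07 with 324 genes called, HRP1 and TIF4631 among them (edgeR adjusted p = 0.0473 and 0.0486). In both cases the single library left at 25°C is assumed to vary like the other groups. Scaling by total counts moved the median of all genes at 37°C against 25°C from 0.088 to 0.33 and that of the 10 genes to −0.61, with all 10 still negative.

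Ratios of the counts of 2 mRNAs within a library do not depend on scaling. Compared at 3 contrasts each were 4 pairs of complex partners, paralogs or poly(A)-binding proteins. With 2 against 2 libraries the exact permutation test (two-sided) cannot give a p below 0.333, and the 12 comparisons were adjusted together, so every separated pair of groups below had p = 0.333 (Benjamini-Hochberg adjusted 0.444). NAB2 to PAB1 had log2 ratios of −1.27 and −1.33 for 25°C, −2 and −1.84 for 30°C, and −0.61 and −0.73 for 37°C. The 3 temperatures were separated from each other. The 37°C mean was above the 30°C mean by 1.25 and above the 25°C mean by 0.63, and the difference of 30°C from 25°C was −0.62. Without the first 25°C replicate the differences from 25°C were 0.66 and −0.59. Relative to PAB1, the NAB2 mRNA was thus most counted at 37°C.

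CBC2 to STO1 had log2 ratios of −3.06 and −2.01 for 25°C, −2.34 and −1.89 for 30°C, and −1.82 and −1.41 for 37°C. Both 37°C values were above all others, the first only just, at −1.82 against −1.89 in the second 30°C replicate. Those ratios rest on 30 and 36 CBC2 counts, and the 95% Poisson interval of the 30 counts is 20.2 to 42.8. The difference of the means was 0.92 against 25°C and 0.50 against 30°C. The former was 0.40 without the first 25°C replicate, whose CBC2 count was 6. The order of 30°C and 25°C depended on that library (0.42 with it and −0.10 without). The proteins form a complex of 1 copy each, which the ratio of their mRNAs does not measure. At 37°C that ratio lay above the other libraries, in the first replicate only just. STO1 was tagged in all libraries, with its cassette outside the counted gene.

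GBP2 to HRB1 had log2 ratios between −1.01 and −0.72 in all 6 libraries. The widest gap lay within the 25°C replicates, and the difference at 37°C was −0.040 against 25°C (−0.18 without the first 25°C replicate) and −0.095 against 30°C. TIF4631 to its paralog TIF4632 had log2 ratios of 1.33 and 1.497 for 25°C, 1.19 and 1.29 for 30°C, and 0.59 and 0.99 for 37°C. Both 37°C values were the lowest, with a difference of −0.62 against 25°C (−0.71 without the first 25°C replicate) and −0.45 against 30°C. TIF4632 itself had levels of 312 and 160 CPM at 25°C, 140 and 173 CPM at 30°C, and 182 and 149 CPM at 37°C, which overlapped, with a log2 fold change at 37°C against 25°C of −0.47 (SE 0.39, edgeR adjusted p = 0.627), and 0.024 when the first 25°C replicate was left out.

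**Figure D5:**
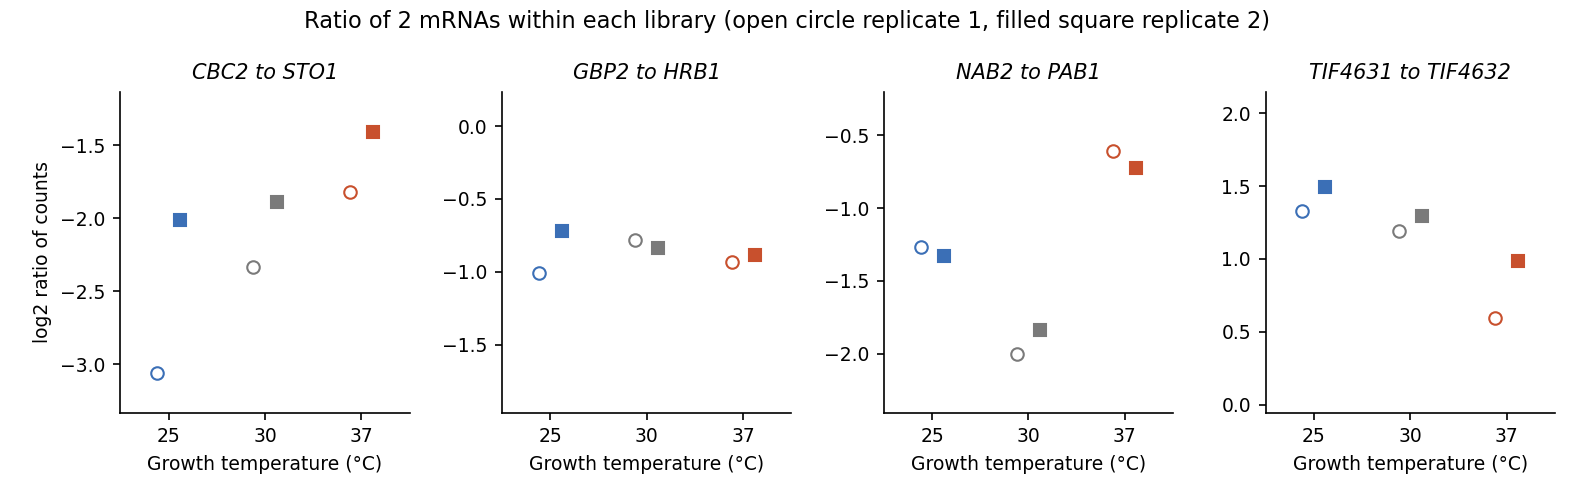
The log2 ratio of the counts of 2 mRNAs (y axis, each panel spanning the same height) in each library against growth temperature (x axis, °C), with open circles for replicate 1 and filled squares for replicate 2. NAB2 to PAB1 is lowest at 30°C and highest at 37°C, while GBP2 to HRB1 stays between −1.01 and −0.72.

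The likeness of the profiles was described by Pearson's r of log2 CPM over the 6 libraries, which share depth, scaling and the 25°C replicate that stands apart. Of the 45 pairs among the 10 genes, 44 were positive, with a median of 0.71, from −0.13 for CBC2 and NAB2 to 0.98 for HRP1 and TIF4631. Pairs over all genes were not computed, so these values stand without a background. Against the mean of the other 9, TIF4631 (0.99), HRP1 (0.98), NPL3 (0.97), PUB1 (0.97) and STO1 (0.92) stood closest, and NAB2 and CBC2 (0.44 each) farthest. Without the first 25°C replicate, HRB1 went from 0.81 to 0.18 and NAB2 to −0.29, while HRP1 (0.98), NPL3 (0.96), TIF4631 (0.96) and PUB1 (0.94) stayed above 0.9. The 5 other genes closest to the mean of the 10 were NOP4, CDC33, NOP58, OGG1 and LOC1 (r between 0.996 and 0.999). CDC33 encodes eIF4E, which takes the cap from the cap-binding complex, NOP4, NOP58 and LOC1 encode ribosome assembly factors, and OGG1 a DNA repair enzyme. NOP4, the nearest, had levels of 1481 and 879 CPM at 25°C, 671 and 867 CPM at 30°C, and 596 and 536 CPM at 37°C.

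Partners of the 10 proteins were read from 5 lists, 45 genes of which 44 were tested (CCR4 did not pass the filter). No list held a gene called by edgeR in any comparison. At 37°C against 25°C the median over the 44 genes was −0.37, 32 were negative, and 5 had an unadjusted p below 0.05, all lower, against the 6.02% of all genes given above. In cap-dependent initiation the medians of the 7 genes were −0.47 against 25°C and −0.75 against 30°C. CDC33 (eIF4E) had means of 137 ± 63.6 CPM at 25°C, 71.8 ± 18.6 CPM at 30°C and 42.5 ± 1.72 CPM at 37°C, with a log2 fold change of −1.61 at 37°C against 25°C (SE 0.43, unadjusted p = 0.00685, edgeR adjusted p = 0.245), and −1.15 without the first 25°C replicate. TIF3 (eIF4B) was at 1293 ± 192 CPM, 943 ± 186 CPM and 553 ± 42.2 CPM at the 3 temperatures (log2 fold change at 37°C against 25°C −1.22, SE 0.37, edgeR adjusted p = 0.279, and −1.09 without that replicate). eIF4E is the partner of eIF4G at the cap and eIF4B assists its helicase, and neither mRNA passed the test after adjustment.

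TIF2, one of the genes for the helicase eIF4A, was higher at 30°C than at 25°C (log2 fold change 1.59, unadjusted p = 0.0233, edgeR adjusted p = 0.888, and 1.48 without the first 25°C replicate, against 1.1% of all genes) and lower at 37°C than at 30°C (−1.39, unadjusted p = 0.0197, edgeR adjusted p = 0.619). It is named for these values after they were seen, and it is uncertain, since reads shared with the near-identical TIF1 were not counted and its mean at 25°C was 7.67 CPM.

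For the other lists the medians at 37°C against 25°C were −0.45 in capping and decapping (10 genes), −0.28 in poly(A) tail synthesis and removal (7 genes tested), −0.37 in import, modification and nuclear pore partners (10 genes) and −0.38 in other mRNA-binding proteins (10 genes). LSM1, of the ring that binds deadenylated mRNA before decapping, had a log2 fold change of −1.504 (SE 0.48, edgeR adjusted p = 0.296), and EDC3, a decapping enhancer, −0.58 (SE 0.29, edgeR adjusted p = 0.423). PAN3, of a nuclease that trims Pab1-bound tails, had a positive value, 0.97 (SE 0.46, edgeR adjusted p = 0.393), with means of 18.9 ± 10.1 CPM at 25°C and 43.5 ± 1.81 CPM at 37°C, while SGN1, for a poly(A)-binding protein of the cytoplasm, had −0.93 (SE 0.50, edgeR adjusted p = 0.448). These values became, with the first 25°C replicate left out, −0.81 for LSM1, −0.49 for EDC3, 0.71 for PAN3 and −0.49 for SGN1.

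SRP1 and KAP95, the importin pair that carries the cap-binding complex into the nucleus, had log2 fold changes of −0.53 (SE 0.31, edgeR adjusted p = 0.490) and −0.50 (SE 0.36, edgeR adjusted p = 0.576) at 37°C against 25°C, and −0.53 and −0.41 without the first 25°C replicate. None of the 10 genes of that list had an unadjusted p below 0.05 in any comparison. Of the other mRNA-binding proteins, SBP1, a repressor of translation that contacts eIF4G, went from 905 ± 441 CPM at 25°C to 285 ± 35.6 CPM at 37°C (log2 fold change −1.66, SE 0.44, edgeR adjusted p = 0.245, and −1.08 without the first 25°C replicate), and WHI3, which binds cyclin mRNA, had −0.93 (SE 0.39, edgeR adjusted p = 0.360, and −0.73 without it).

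The 250 bases before each start codon were searched on both strands for a few motifs, as a description that says nothing of the factors themselves. The stress response element CCCCT occurred in 1 of the 10 (NPL3), against 18.8% of 5990 coding genes. The heat shock element letters GAANNTTC and TTCNNGAA occurred in 1 (NAB2) and 3 (STO1, CBC2 and TIF4631), against 9.95% and 11.1%. The ribosome biogenesis motifs GATGAG (PAC) and AAAATTTT (RRPE) occurred in 0 and 3 (NAB2, NPL3 and TIF4631), against 17.0% and 8.66%, and the Reb1 motif TTACCCG in 1 (CBC2), against 7.05%. A window can hold more than 1 of these motifs, and the 10 genes had no motif in common.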

How the data were processed

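Total RNA was prepared by the authors from frozen cell grindate, treated with DNase and made into 3′-Tag-seq (QuantSeq) libraries, 2 biological replicates per temperature. The deposited counts are whole reads per annotated gene of R64, and the submitters' processing notes list HTSeq 2.0.2, STAR 2.7.10a, DESeq2 1.38.2 and UMI-tools 1.0.1 without their roles. UMI handling and the counting mode are described for the pull-down libraries only. The sources used here do not give the strand setting. The deposited normalized signal equals the count divided by 1 size factor per library made by the authors (100% of values whole within 0.001 when multiplied back, so a count test on them is that on the counts).

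Of 6461 genes, 6458 matched the R64 annotation, and 5 summary entries were left out of library sizes (reads in no gene 41.1% to 47.9% of a library, reads mapped to more than 1 place 7.81% to 14.1%). Genes kept by filterByExpr were tested with the quasi-likelihood test of edgeR 4.0.16 (TMM factors 0.883 to 1.12), all 6 libraries in 1 model of temperature, Benjamini-Hochberg adjustment over 5181 genes, and the thresholds of the study's methods (adjusted p below 0.05, log2 fold change past 1). The test was first run on simulated counts, drawn from 1 mean per gene apart from planted changes at 37°C. These kept the library depths but not the separate profile of the first 25°C replicate, so they do not check the test for it. SE is the coefficient divided by the root of F, and intervals use a t quantile at 95%. The members and lists were chosen with earlier results of these data known. Named genes were the 10 members, TIF4632, the 2 genes of each list with the smallest unadjusted p at 37°C against 25°C, and the 5 other genes with the highest r to the members' mean. TIF2 falls outside this rule and was added after its values were seen. Alternatives were DESeq2 1.42.0, limma-voom (limma 3.58.1), other scalings and filters, fits of 2 temperatures, a replicate block, an adjusted p alone, 1 count added to ratios and each library left out, and, chosen after seeing the data, a crossed block and DESeq2 without the first 25°C replicate. Python 3.11.15 (matplotlib 3.10.9, scipy 1.17.1, pandas 2.3.3, numpy 2.4.6) and R 4.3.3 were used. Motif searches and printed sequences used the RefSeq R64 genome.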

Additional observations from a re-analysis of the deposited data

How the results depend on the processing

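At 37°C against 25°C the members had negative values under every alternative run (9 members were tested with at least 10 counts in every library, CBC2 not). The count of genes called there was 0 by edgeR, 53 by DESeq2 (22 without the first 25°C replicate), 7 with total counts as the scale, 4 without a low-count filter, 1 with only the compared temperatures fitted, 10 with a crossed block and 0 to 324 with each library left out, and the count of members called was 1 by DESeq2 and 0 to 2 with each library left out. At 37°C against 30°C DESeq2 called 15 genes (29 without the first 25°C replicate). Signs turned for some members. At 37°C against 30°C these were CBC2 (−0.88 to 0.31 with each library left out), GBP2 with total counts (0.093) and HRB1 with total counts (0.19), with at least 10 counts in every library (0.047) and with each library left out (−0.14 to 0.022). At 30°C against 25°C they were CBC2 (−0.75 to 0.42 with each library left out) and PAB1 (0.060 with at least 10 counts in every library, −0.34 to 0.033 with each library left out). Ratios of CBC2 to STO1 ranged from −0.10 to 0.95 at 30°C against 25°C with a library left out, and those of GBP2 to HRB1 from −0.18 to 0.10 at 37°C and from −0.090 to 0.20 at 30°C, both against 25°C. Replicate numbers are not tied to shared cultures by the labels, and replicate differences correlated at 0.28 (25°C and 37°C), −0.53 (25°C and 30°C) and −0.40 (30°C and 37°C) across 5181 genes. With the replicate block 0 genes were called in each comparison. At 37°C against 25°C, 4 members rather than 5 then had an unadjusted p below 0.05, with 422 rather than 702 over all genes. At 37°C against 30°C it was 0 members rather than 1, with 191 rather than 366 over all genes. With total counts 1 member passed at 37°C against 25°C, with 748 over all genes. That member count moved in both directions with a 25°C or 37°C replicate left out, which leaves 1 library in that group. Depth limits CBC2 most.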
